A study of Mus musculus with 864 samples.

Results

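Atp1b1, the beta 1 subunit of the sodium pump, and Fxyd2, Fxyd6 and Fxyd7, 3 small membrane proteins that bind the pump, are described here across sensory neurons of the mouse dorsal root ganglion. These 4 genes of 23281 in the expression table were chosen by name with their levels over neuron types, and the level of Fxyd7 by picking session, already known. Differences of the 4 genes between neuron types and between sessions are therefore given as a description and were not tested. All 4 genes had 1 row each in the table.

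Cells of the lumbar ganglia of C57/Bl6 mice aged 6 to 8 weeks were dissociated, picked by hand into plates, and the 5′ end of each transcript was tagged and sequenced. No genotype or treatment was compared. Single cells filled 799 wells, of which 694 (86.9%) had 1000 or more genes with a value above 0 and were used. Animals are not named in the labels, and cells of the same sex from the same picking session are called a preparation and taken as the replicate. Preparations 1 and 2 were the males and the females of session A. Preparation 3 was the males of session B. Preparations 4 and 5 were the males and the females of session C. Sessions A and B were picked at room temperature and session C with cooling. The female preparations, 2 and 5, kept 45 and 75 cells and the male ones more. In preparations 1 to 5 the median reads per cell were 15421, 15597, 198656.5, 1526077.5 and 2573228. Session, cooling and depth cannot be told apart for session C. Because animals are not named, spread between preparations may be partly technical.

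The sodium pump spends ATP to move sodium out of the cell and potassium in, and so maintains the gradients on which action potentials run. It is built of a catalytic alpha subunit and a glycosylated beta subunit that brings alpha to the plasma membrane. A FXYD protein, named for a short motif of 4 amino acids, can join the complex and shift its affinity for ions. Fxyd2 is best known as the gamma subunit of the kidney pump, and Fxyd6 and Fxyd7 as regulators found mainly in the nervous system.

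Fxyd6 and Fxyd2 are next to each other on chromosome 9, on the same strand. Fxyd7 lies on chromosome 7 between Fxyd5 and Fxyd1, and Atp1b1 lies on chromosome 1. Atp1b1 overlaps Nme7 on the opposite strand. Whether counting used the strand is not given in the sources used here, so reads of these overlapping genes may not be told apart. The 5′-tagged reads begin at transcript starts, and the 250 bases before the starts of Atp1b1 and Fxyd6 are shown as the sequence next to those reads. Both sequences are from RefSeq on GRCm38.p6, read on the strand of the gene. Capitals mark matches, on either strand, to the GC box (GGGCGG) and the CCAAT box (CCAAT), which do not overlap here.
Atp1b1, chr1:164458356-164458605, minus strand: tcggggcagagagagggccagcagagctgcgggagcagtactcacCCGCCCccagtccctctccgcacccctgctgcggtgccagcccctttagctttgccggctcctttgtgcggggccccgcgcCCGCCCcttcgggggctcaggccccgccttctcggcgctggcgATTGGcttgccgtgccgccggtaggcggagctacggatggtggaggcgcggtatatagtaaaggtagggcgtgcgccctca
Fxyd6, chr9:45369935-45370184, plus strand: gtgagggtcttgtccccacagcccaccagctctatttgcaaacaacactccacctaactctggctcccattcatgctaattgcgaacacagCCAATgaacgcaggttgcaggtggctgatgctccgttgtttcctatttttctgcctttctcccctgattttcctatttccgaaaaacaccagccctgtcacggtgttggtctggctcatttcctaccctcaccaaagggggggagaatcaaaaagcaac
The Atp1b1 window held 2 GC boxes and 1 CCAAT box, and the Fxyd6 window held 0 GC boxes and 1 CCAAT box. Among 32851 promoter windows of the same length, 32.7% held a GC box and 33.8% a CCAAT box. Neither window held TATAAA, found in 12.4% of windows, or the RUNX core TGTGGT, found in 14.0%.

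Cells were clustered without the pump, FXYD and sodium transporter genes, and clusters were named from marker genes. Of the cells used, 21.9% fell in a neurofilament-rich class (NF-like), 23.8% among nonpeptidergic nociceptors (NP-like), 6.05% among peptidergic nociceptors (PEP-like, 42 cells) and 36.2% in the tyrosine hydroxylase class (TH-like, 251 cells). Preparations 1 to 5 held 14, 0, 16, 9 and 3 PEP-like cells, so this class has 4 preparations and the others 5. The markers below are among those used to name the clusters, so their levels describe the classes and do not test the names. Mean Nefh was 2859 RPM (reads of the gene, scaled to the same total in every cell) in NF-like cells and at most 344 in the other 3 neuron classes. Mean Mrgprd was 181.4 RPM in NP-like cells and at most 2.97 in the other neuron classes. Tac1 was 35211 RPM in PEP-like cells and at most 2008 in the other neuron classes. Th was 2413 RPM in TH-like cells and at most 42.4 in the other neuron classes. A further 84 cells stayed unnamed, and 44 of these formed cluster 5, led by Igfbp5 and the collagen gene Col1a2.

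RPM gives each cell the same total and is not divided by length because reads come from one end of the transcript. Levels below are the mean RPM over the cells of a class in a preparation, then the mean and SD over preparations. Differences are on the scale of log2(mean RPM + 5), as a class minus the mean of the other 3 classes, with the SE of a limma fit that has the preparation as a block.

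Atp1b1 was highest in NF-like cells, at 2033 ± 379 RPM (SD, n = 5). Its level there was 2625, 1846, 2132.5, 1621 and 1940.3 RPM in preparations 1 to 5. Each of these was above every preparation of the other 3 classes, whose highest value was 1463 RPM, from the 3 PEP-like cells of preparation 5. The NF-like level differed from the mean of the other classes by 1.96 ± 0.19 (log2, SE) and was higher in 5 of 5 preparations. NP-like cells had 678, 517, 573.9, 377 and 864 RPM, and TH-like cells had 492, 239.4, 373, 375 and 659 RPM. PEP-like cells had 899.7, 358.9, 276 and 1463 RPM in preparations 1, 3, 4 and 5. The ranges of these 3 classes overlapped, and their order is not separated by the spread. TH-like cells had the lowest mean, 428 ± 157.05 RPM, a log2 difference of -1.10 ± 0.19. In cluster 5 Atp1b1 was at 43.7 ± 38.8 RPM (SD, n = 3).

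Fxyd2 was the most abundant of the 4 genes in TH-like and NP-like cells. TH-like cells had 8325, 10224, 13428, 12070 and 12866 RPM in preparations 1 to 5, a mean of 11383 ± 2095 (SD, n = 5). NP-like cells had 5871, 7824, 9852, 8287 and 7726 RPM, a mean of 7912 ± 1424. The 2 classes overlapped across preparations, although TH-like cells were above NP-like cells within each of the 5. NF-like cells had 1396, 2335, 2289, 3663 and 3256 RPM, all below the lowest NP-like value. PEP-like cells had 402, 652, 554.5 and 93.3 RPM, all below the lowest NF-like value. On the log2 scale PEP-like cells differed from the mean of the others by -4.12 ± 0.36, TH-like cells by 2.58 ± 0.33 and NP-like cells by 1.88 ± 0.33. The NF-like difference was -0.34 ± 0.33 and was positive in 1 of 5 preparations.

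Fxyd2 varied within the NF-like class. Median values over its cells were 187.2, 128.65, 168.4, 25.5 and 53.1 RPM in preparations 1 to 5, far below the means of the same cells. Cluster 4, led by Htr3a, had 6029 ± 2437 RPM (SD, n = 5) and cluster 1, led by Pcp4l1 and Thy1, had 1837 ± 1343 (n = 3). The clusters with Pvalb, a marker of proprioceptors, had 135.8 ± 90.3 RPM (cluster 13, n = 4) and 191.2 ± 33.9 RPM (cluster 16, n = 2). TH-like clusters also differed in level, from 6167 ± 1131 RPM (cluster 3, led by Sorcs1, n = 4) to 17203 ± 1681 RPM (cluster 6, led by Wfdc2, n = 3). Atp1b1 ran the other way between these TH-like clusters, at 741 ± 461 RPM in cluster 3 and 230.2 ± 190.5 RPM in cluster 6. The preparations of the 2 clusters were 422 to 1419 RPM and 23.02 to 398 RPM. The other TH-like clusters lay at 315 to 540 RPM. Sessions A and B held 35 of 54 cells of cluster 3, and session C 40 of 43 cells of cluster 6. The 23.02 RPM came from 3 cells of preparation 3. Within session C alone Atp1b1 was at 920.3 RPM in cluster 3 and 333.7 RPM in cluster 6 (n = 2).

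Fxyd6 had its highest means in TH-like and PEP-like cells. TH-like cells had 360.3, 465, 396, 691 and 769 RPM in preparations 1 to 5, and PEP-like cells had 82.1, 278, 464.6 and 206.3 RPM in preparations 1, 3, 4 and 5. The 2 ranges overlapped. Medians over cells were 351, 416, 342, 606 and 589 RPM in TH-like cells. In PEP-like cells they were 0, 224.2, 90.4 and 1.97 RPM, and 21.4% of the cells of preparation 1 were above 0. The PEP-like means thus rest partly on a few cells. NF-like cells had 3.67, 0, 16.2, 41.2 and 0.385 RPM, and NP-like cells had 9.79, 8.04, 1.77, 52.7 and 0.298 RPM. Each mean of these 2 classes was below every TH-like and PEP-like mean. The 52.7 RPM of NP-like preparation 4 came with a median over cells of 0.182 RPM, and that of preparation 5 was 0. Log2 differences were 4.03 ± 0.41 in TH-like, 2.25 ± 0.45 in PEP-like, -3.25 ± 0.41 in NF-like and -3.03 ± 0.41 in NP-like cells.

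Fxyd7 was highest in NF-like and PEP-like cells. NF-like cells had 4049, 3462, 4291, 463 and 151.8 RPM in preparations 1 to 5, and PEP-like cells had 3407, 2701, 294 and 115.3 RPM in preparations 1, 3, 4 and 5. NP-like cells had 74.01, 48.3, 85.7, 3.74 and 0.0370 RPM, and TH-like cells had 54.4, 112.7, 148.3, 2.20 and 0.0575 RPM. Preparations 4 and 5, both of session C, were the lowest in every class. Within sessions A and B, NF-like cells had a mean of 3934 ± 426 RPM (SD, n = 3) against 69.3 ± 19.1 in NP-like and 105.2 ± 47.4 in TH-like cells. Within session C the mean was 307 RPM in NF-like and 204.6 in PEP-like cells against 1.89 and 1.13 RPM in NP-like and TH-like cells (n = 2). NF-like and PEP-like cells were above NP-like and TH-like cells in both. Over all preparations the log2 differences were 3.81 ± 0.23 in NF-like, 3.17 ± 0.26 in PEP-like, -3.65 ± 0.23 in NP-like and -3.33 ± 0.23 in TH-like cells.

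**Figure D1:**
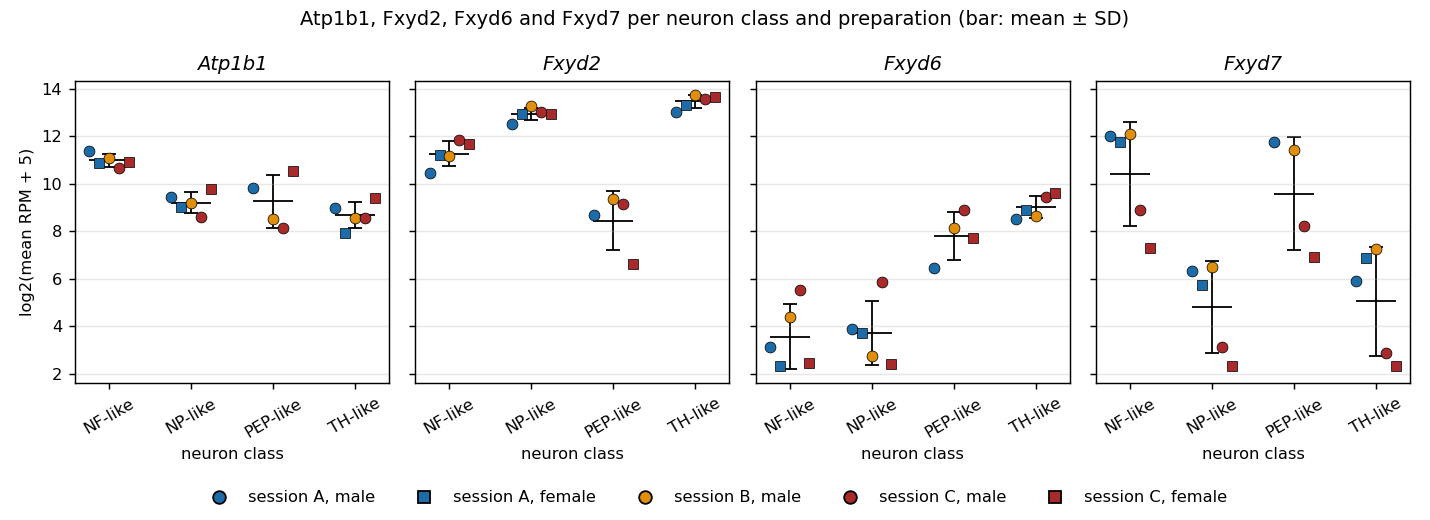
Level of Atp1b1, Fxyd2, Fxyd6 and Fxyd7, as log2(mean RPM + 5) on the y axis, in the 4 neuron classes on the x axis. Each point is 1 preparation with 3 or more cells of the class, coloured by session and shaped by sex, and bars give the mean ± SD. Fxyd7 in session C is the lowest in each class, at 463 and 151.8 RPM in NF-like cells against 3462 to 4291 RPM in the other preparations.

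The share of cells with a read was compared after each cell was thinned at random to 3000 reads, which gives every cell the same number of reads. Intervals are 95% Wilson intervals and, like all counts of reads without molecular identifiers, cover counting error only. Atp1b1 had a read in 97.97% of NF-like cells (94.2 to 99.3), 64.02% of NP-like, 53.7% of PEP-like and 58.6% of TH-like cells. Fxyd2 had a read in 100% of NP-like and 99.6% of TH-like cells, and in 50.7% of NF-like and 48.8% of PEP-like cells. Wells with no cell in session A held a mean of 14.8 Fxyd2 reads, 18.2% of the mean in cells. The part of such background reads in the NF-like and PEP-like shares was not tested. Fxyd6 had a read in 66.7% of TH-like (60.6 to 72.2) and 36.6% of PEP-like cells (23.6 to 51.9), against 3.38% of NF-like and 3.66% of NP-like cells. Fxyd7 had a read in 75.6% of PEP-like and 70.9% of NF-like cells, against 10.4% of NP-like and 13.7% of TH-like cells. Before thinning, 89.9% of NF-like, 54.9% of NP-like and 47.8% of TH-like cells had a Fxyd7 read.

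**Figure D2:**
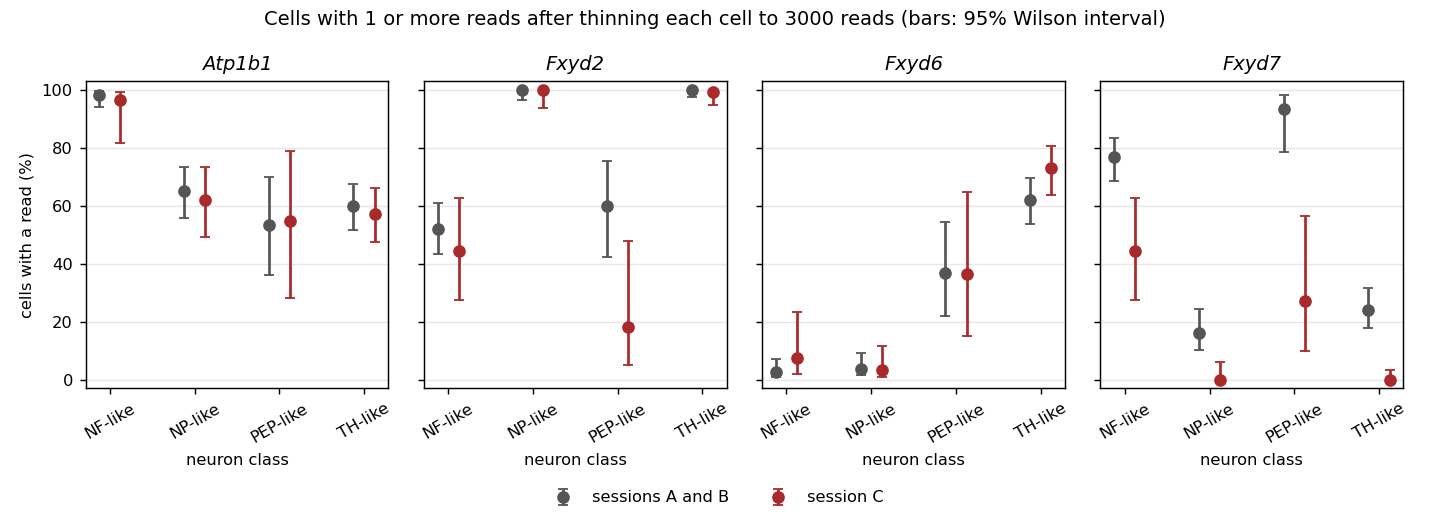
Percent of cells with 1 or more reads of each gene (y axis) after thinning to 3000 reads, by class (x axis), for sessions A and B together (grey) and session C (red). Bars are 95% Wilson intervals. Fxyd7 is at 0 of 58 NP-like cells and 0% of TH-like cells in session C, while Atp1b1 stands at 98.3% and 96.3% of NF-like cells.

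Pairing of regulators and subunits was described by the share each gene held of its family's RPM. In TH-like cells Fxyd2 held 94.9% ± 0.738 (SD, n = 5) of the summed Fxyd1 to Fxyd7 level and Fxyd6 4.46% ± 1.13. In NP-like cells Fxyd2 held 99.2% ± 0.485. Fxyd2 was the leading FXYD gene in all 251 TH-like cells and in 99.4% of NP-like cells. In NF-like cells the family was divided between Fxyd2 and Fxyd7, at 56.6% ± 32.1 and 42.9% ± 32.6 over all preparations. Within sessions A and B Fxyd7 held 66.3% and Fxyd2 33.5%, and within session C Fxyd7 held 7.74% and Fxyd2 91.1%. Fxyd7 led the family in 53.3% of NF-like cells and Fxyd2 in 44.1%. Counted by cells within session C, Fxyd7 led in 42.9% of NF-like cells and Fxyd2 in 53.6%. In PEP-like cells 3 genes shared the family. Fxyd7 held 50.8% ± 33.9 (n = 4), Fxyd2 21.3% ± 12.3 and Fxyd6 20.8% ± 18.9, and Fxyd7 led in 27 of 42 cells. The order differed by session. In sessions A and B Fxyd7 held 79.8%, Fxyd2 13.97% and Fxyd6 4.83%, and Fxyd7 led in 24 of 30 cells. In session C Fxyd6 held 36.8%, Fxyd2 28.7% and Fxyd7 21.8%, and Fxyd6 led in 5 of 12 cells and Fxyd7 in 3.

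Within the NF-like class the shares were also taken by cluster. In sessions A and B, Fxyd7 held 91.4% of the family in cluster 13 and 82.3% in cluster 16, the Pvalb clusters. It held 81.6% in cluster 1 and 51.96% in cluster 4, led by Htr3a. In session C Fxyd7 held 93.98% in cluster 13, from 4 cells of preparation 4. There it held 17.3% in cluster 1 (1 preparation) and 1.86% in cluster 4 (n = 2). By cells of session C, Fxyd7 led in 3 of 6 in cluster 13 and Fxyd2 in 2. These are shares of the mean RPM, and counts of cells differed from them in cluster 16. Over all sessions Fxyd7 led in 7 of 23 cells of cluster 16 and Fxyd2 in 16, and as a mean over cells Fxyd2 held 57.1% and Fxyd7 41.9%. Fxyd2 was at only 191.2 RPM in cluster 16, and 14 of its cells were from preparation 1, of session A. Wells with no cell held a mean of 14.8 Fxyd2 reads in session A. The part of such background reads in the Fxyd2 lead was not tested. In cluster 13 Fxyd7 led in 18 of 29 cells, and its mean over cells was 69.2%. In all 4 clusters Atp1b1 held most of the beta level, with Atp1b3 between 1.47% and 4.09%. In clusters 13 and 16, after thinning, 66.7% of 27 cells and 39.1% of 23 cells had reads of both Atp1b1 and Fxyd7.

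Among the beta subunits Atp1b1 held most of the level in NF-like cells and shared it with Atp1b3 elsewhere. Its share was 96.3% ± 2.95 of the Atp1b level in NF-like cells and 71.95% ± 17.1 in PEP-like cells. In NP-like cells it held 57.9% ± 8.22 and Atp1b3 41.9% ± 8.11, and in TH-like cells 45.6% ± 9.40 and 53.7% ± 9.89.

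After thinning, Atp1b1 and Fxyd2 were both read in 64.02% of NP-like, 58.2% of TH-like, 50% of NF-like and 26.8% of PEP-like cells. Atp1b1 and Fxyd7 were both read in 69.6% of NF-like and 39.02% of PEP-like cells, against 7.93% and 8.43% of NP-like and TH-like cells. Fxyd2 and Fxyd6, the neighbours on chromosome 9, were both read in 66.7% of TH-like cells, 19.5% of PEP-like and 3.66% of NP-like cells. Fxyd2 was read in nearly every NP-like and TH-like cell, so there the share of a pair with Fxyd2 is nearly that of the other gene. Shares of pairs, in classes and in clusters, were not compared with those from genes read independently. No pairing within cells is read from them. Across the 19 combinations of class and preparation, less each preparation's mean, Pearson's r was -0.77 between Fxyd2 and Fxyd7, 0.68 between Atp1b1 and Fxyd7, and -0.05 between Fxyd2 and Fxyd6. These points share cells and libraries and r is given as a description.

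**Figure D3:**
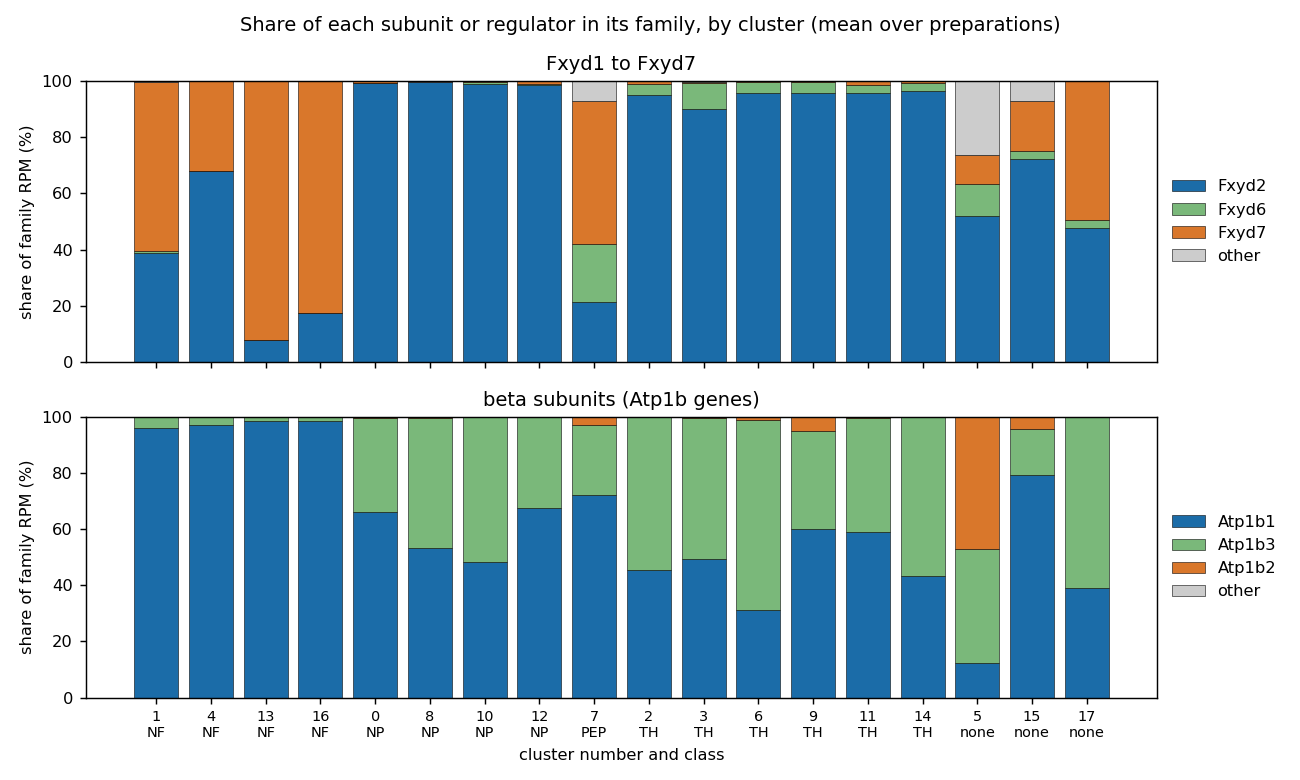
Share (y axis, percent of summed RPM, mean over preparations) of each gene among the FXYD genes and the beta subunits, for the 18 clusters (x axis: cluster number and class, none for unnamed). Bars are shares of the mean RPM: Fxyd7 fills most of the FXYD bar in NF-like clusters 13 and 16, although Fxyd2 led in 16 of 23 cells of cluster 16, and Atp1b1 fills nearly all of the beta bar in both. Clusters 9, 11, 14 and 16 have values from sessions A and B only and cluster 8 from session C only.

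The other genes of the pump, 15 in all, were tested between classes with limma, with p adjusted over the 9851 genes of mean 5 RPM or more. Of the 15, 9 passed that filter, and Atp1b4, Fxyd3, Fxyd4, Nkain3 and Nkain4 were among those that did not. In NF-like cells 4 of 9 were called (12.4% of all genes tested were called there, 8.15% higher and 4.22% lower), 3 higher and 1 lower. Atp1b3, the beta 3 subunit, had a level of 74.2 RPM in NF-like cells, with 367 in the other classes (log2 difference -2.41 ± 0.30, limma adjusted p = 2.28e-06, lower in 5 of 5 preparations). Without the block 2 of the 9 genes were called in place of 4. Nkain2, a sodium pump interacting protein, was higher, at 19.6 RPM against 5.48 (1.38 ± 0.42, limma adjusted p = 0.0306, in 5 of 5), and its call was lost without preparation 3, 4 or 5 (limma adjusted p = 0.114, 0.133 and 0.131). The median log2 difference of the 9 genes was -0.40 against 0.10 over all genes tested.

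In NP-like cells 2 of 9 were called, against 9.63% of all genes, 5.09% higher and 4.55% lower. These were 1 higher and 1 lower. Atp1b3 was higher, at 432 RPM against 248 (log2 difference 1.37 ± 0.30, limma adjusted p = 0.00311, in 5 of 5 preparations). With no filter on low genes Atp1b3 lost its call (limma adjusted p = 0.0541), as it did in sessions B and C only (0.129). In TH-like cells 1 of 9 was called, against 8.1% of all genes, 5.16% higher and 2.94% lower. This was Atp1b3, at 496 RPM against 226.6 (1.63 ± 0.30, limma adjusted p = 0.000627, higher in 5 of 5). Median differences of the 9 genes were -0.49 in NP-like and -0.13 in TH-like cells, against 0.06 and 0.14 over all genes.

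In PEP-like cells 2 of 9 were called, against 15% of all genes, 3.22% higher and 11.8% lower. These were 1 higher and 1 lower. Fxyd5, known as dysadherin, was higher, at 38.98 RPM against 1.92 (log2 difference 2.05 ± 0.47, limma adjusted p = 0.00511, higher in 3 of 4). Fxyd5 was above 0 in 21.4%, 25%, 22.2% and 0% of PEP-like cells in preparations 1, 3, 4 and 5. Its call was lost without preparation 1 or 4 (limma adjusted p = 0.0720 and 0.0516). The call was not made by edgeR with TMM or DESeq2 size factors (adjusted p = 0.248 and 0.199). Satellite glia markers, all 7 above 0, summed to 1154 RPM in PEP-like cells (316 to 1744 over preparations) against 94.6 to 1033 RPM over preparations of the other neuron classes. Fibroblast markers, all but 1 of 6 above 0, summed to 302.5 RPM in PEP-like cells (0 to 587) against 0 to 195.6 RPM. The part of either list in the Fxyd5 result was not tested. Atp1b2, a beta subunit best known from glia, was at 29.01 RPM in PEP-like cells against 3.73 RPM (limma adjusted p = 0.0721), short of the threshold of 0.05. The median difference of the 9 genes was 0.16 against -0.36 over all genes.

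**Figure D4:**
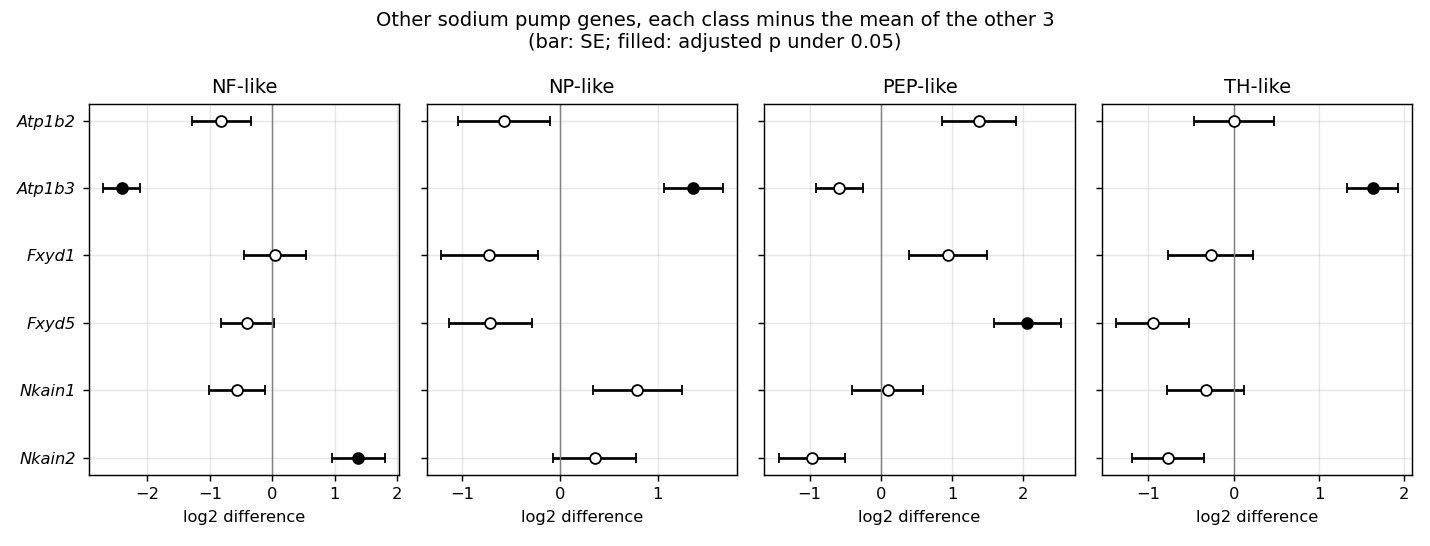
Log2 difference (x axis) of 6 other sodium pump genes (y axis) in each class against the mean of the other 3, with SE. Filled points have a limma adjusted p under 0.05. Atp1b3 is lower in NF-like cells (-2.41) and higher in NP-like (1.37) and TH-like cells (1.63).

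Of 10 transporters that use the sodium gradient, 9 passed the filter. NF-like cells had 3 called higher, the potassium-dependent sodium calcium exchangers Slc24a2 and Slc24a3 and the sodium calcium exchanger Slc8a3. Slc24a2 was at 338 RPM against 161.3 (log2 difference 1.19 ± 0.28, limma adjusted p = 0.00471), higher in 4 of 5 preparations, but after thinning the difference was -0.10 (limma adjusted p = 0.974). Slc24a3 was at 15.1 RPM against 3.00 (1.21 ± 0.37, limma adjusted p = 0.0314), and lost its call without preparation 1, 3 or 5 (limma adjusted p = 0.104, 0.0918 and 0.0604). Slc8a3 was at 15.5 RPM against 4.67 (1.40 ± 0.42, limma adjusted p = 0.0264), and lost its call without preparation 1, 3 or 5 (limma adjusted p = 0.180, 0.142 and 0.0658). TH-like cells had 1 called higher, the exchanger Slc8a1, at 24.6 RPM against 4.45 (1.89 ± 0.42, limma adjusted p = 0.00391, higher in 5 of 5). In PEP-like cells Slc8a1 was listed at 0 in all 4 preparations against 12.7 RPM elsewhere (limma adjusted p = 0.0306), a call lost without preparation 1, 3 or 4 (limma adjusted p = 0.0962, 0.0791 and 0.0923). Slc24a2 was lower in PEP-like cells (-1.38 ± 0.31, limma adjusted p = 0.00492), and lost its call without preparation 1 (limma adjusted p = 0.0791) and after thinning (0.518).

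By session, Fxyd7 had the largest difference of the 4 genes in each class. Its log2 difference of session C from sessions A and B was -3.86 in NF-like, -3.45 in NP-like, -4.00 in PEP-like and -4.08 in TH-like cells. In each class both session C preparations were below all others, which in the 3 classes other than PEP-like together was the case for 2.24% of the 9851 genes tested, while 3.19% lay above in all 3 and 15.4% lay below in NF-like cells. This difference was known when the gene was chosen, and nothing is read from that share. Over all genes the median difference was 0.07, with a 5th percentile of -0.98 and a 95th of 0.97. The split was also present by plate: NF-like cells of 5 plates of sessions A and B had 2631 to 5902 RPM, and of 3 plates of session C 151.8 to 385 RPM. TH-like cells had 33.3 to 174.7 RPM on 5 plates against 0.0575 to 3.85 RPM on 4 plates.

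The Fxyd7 difference was present inside NF-like clusters. Cluster 1 had a mean of 5219 RPM in sessions A and B and 706 in session C, cluster 4 had 4796 and 147.9, and cluster 13 had 3593 and 269. After thinning, Fxyd7 was read in 76.9% of NF-like cells in sessions A and B (68.6 to 83.5) and in 44.4% of 27 in session C (27.6 to 62.7). PEP-like cells had 93.3% of 30 and 27.3% of 11. TH-like cells had 23.9% and 0%, the latter with a Wilson upper bound of 3.47%. Empty and medium wells had a mean of 0.375, 4.4 and 2.09 Fxyd7 reads in sessions A, B and C, which was 0.767%, 0.453% and 0.496% of the mean in cells.

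The genes flanking Fxyd7 were at low levels in NF-like cells. Fxyd1 was at 4.09 RPM there in sessions A and B and 17.9 in session C, and Fxyd5 at 2.02 and 4.61 RPM, and preparations overlapped for both. In PEP-like cells Fxyd5 was at 52.9 RPM in sessions A and B and 25.04 in session C (log2 difference -1.69), with overlapping preparations, and preparation 5, with 3 PEP-like cells, was at 0. Fxyd1 was at 1.64 and 75.1 RPM there, with both session C preparations above the others. The share of all genes lying above in PEP-like cells was not counted. Atp1b3 was higher in session C in NF-like cells, at 129.03 RPM against 37.7, and in TH-like cells, at 651 RPM against 393.

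**Figure D5:**
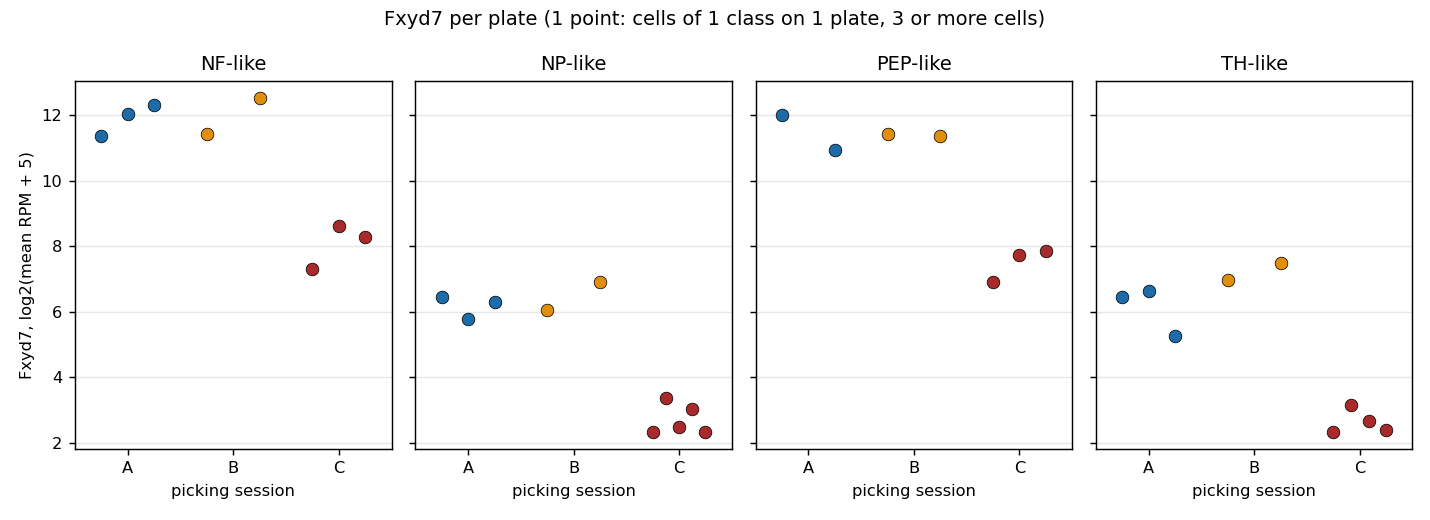
Fxyd7 level, as log2(mean RPM + 5) on the y axis, by picking session (x axis) in each class. Each point is the cells of a class on 1 plate. Session C plates lie below all plates of sessions A and B in each panel, at 151.8 to 385 RPM against 2631 to 5902 RPM in NF-like cells.

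The other 3 genes were closer between sessions. Atp1b1 differed by -0.30, -0.04, 0.16 and 0.49 (log2) in the classes NF, NP, PEP and TH, and its preparations overlapped in each. By plate its NF-like values did not overlap, at 2039.99 to 2726.5 RPM in sessions A and B and 1594 to 1940.3 RPM in session C. Fxyd2 differed by 0.82, 0.06, -1.14 and 0.25. Only in NF-like cells were both session C preparations above the rest, at 3663 and 3256 RPM. The share of all genes lying above in NF-like cells alone was not counted, and 15.4% lay below there. By plate the Fxyd2 values of NF-like cells overlapped, with 1074 to 3073 RPM in sessions A and B and 797 to 5152 RPM in session C. Fxyd6 differed by 0.70, 0.68, 1.00 and 0.84, and in TH-like cells plates of session C had 602 to 983 RPM against 352 to 435 RPM. No share of all genes was counted by plate, so nothing is read from non-overlapping plates of Atp1b1 or Fxyd6. Averaged over the 3 classes other than PEP-like the Fxyd6 difference was 0.74, but -0.33 without preparation 4 and 1.80 without preparation 5. That of Atp1b1 was 0.05, but -0.11 without preparation 2, -0.32 without preparation 5 and 0.43 without preparation 4. Preparation 5 held 7 NF-like cells.

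Males and females were compared in sessions A and C with limma, with session as a covariate and 1 residual degree of freedom. None of the 4 genes was called, against 0.122% of all genes tested (12 genes). An unadjusted limma p under 0.05 was found for 1 of the 4 and for 708 of all 9851 genes tested, and nothing is read from that count. Atp1b1 was at 1265 RPM in males and 868 in females of session A, and 791 and 1154 in session C, a log2 difference of -0.06 ± 0.30 (male minus female, limma adjusted p = 0.987). Fxyd2 was at 5197 and 6794 RPM in session A and 8006.5 and 7949 in session C (-0.21 ± 0.27, limma adjusted p = 0.940). Fxyd6, the gene with the unadjusted limma p of 0.00766, differed by 0.20 in session A and 2.13 in session C (1.17 ± 0.44, limma adjusted p = 0.450). Its mean RPM in session C was nearly equal, at 261.6 in males and 256.7 in females. The session C log2 difference came from low values, 41.2 against 0.385 RPM in NF-like and 52.7 against 0.298 in NP-like cells. In TH-like cells of session C males were lower, at 691 RPM against 769. Fxyd7 differed by -0.06 and 0.96 (0.45 ± 0.39, limma adjusted p = 0.887).

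Genes most like each of the 4 were found by Pearson's r over 19 combinations of class and preparation, less each preparation's mean, among 6021 genes of mean 20 RPM or more. Atp1b1 was most like Rasl10b (r = 0.94), Spp1 (0.94) and Atp5d (0.93). Rasl10b was at 98.9 ± 59.2 RPM in NF-like cells and at most 5.55 in the other classes. Fxyd2 was most like Dpp10 (0.96), Tmsb4x (0.96) and Nrn1 (0.96), and Dpp10 was at 280.8 ± 87.9 RPM in TH-like, 119.7 ± 46.9 in NP-like, 44.8 ± 15.1 in NF-like and 6.34 ± 6.41 in PEP-like cells. Fxyd6 was most like 2010111I01Rik (0.95) and Hpca (0.90), and Hpca was at 341 ± 180.4 RPM in PEP-like and 272 ± 190.3 RPM in TH-like cells. Fxyd7 was most like Rab3b (0.98), Pcdh9 (0.94) and Faim2 (0.94). In NF-like cells Rab3b was at 62.6 RPM in sessions A and B and 115.7 in session C, Pcdh9 at 81.7 and 97.5, and Faim2 at 387 and 218.2, while Fxyd7 was at 3934 and 307 RPM.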

How the data were processed

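The authors deposited one table of RPM (reads scaled to the same total in each well) per gene and well for 864 wells on 10 plates, mapped with Bowtie (version not given) to mm9, per the submitters' processing notes. No molecular identifiers are recorded in the sources used here. In 4 deposited columns, all empty or medium wells, every value was whole, and what 1 read is worth there is unknown, so they are named a score. The smallest step of 841 columns gave back whole reads, with 99.5% of values whole within 0.1. The count test on those reads is an alternative. No wells held identical values. Rows of repeat elements (1217 of 25333) were left out and copies of a gene summed. The 33 wells labelled with more than 1 cell were left out. Doublets were not called.

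Genes and lists were chosen with earlier results of these data known. A random split (seed 1) put the genes in 2 sets, all listed genes in the same one. Cells were clustered on each set (log2(RPM + 100), centred by session, scanpy 1.11.5, Leiden resolution 2), and each gene was tested with classes from the other set. Both sets gave 87.0% of cells the same class. A cluster was named for the class of which most markers, by share, were raised (at least 3), and clusters stayed unnamed where another class had more markers among the 10 leading genes or where the cells were shallow with no own marker there. Mean RPM per class and preparation (3 or more cells) gave 19 values per gene. Their log2(mean RPM + 5) entered limma 3.58.1 (trend, robust, two-sided, Benjamini-Hochberg at 0.05, 11 residual degrees of freedom). The block pairs classes because they come from the same picking session and sex, per the labels. The code was tested on simulated data. Named genes are the 4 genes, the list genes and the 3 most like each, some of which are not reported here. Alternatives, edgeR 4.0.16 among them, are in the closing section. Sequences are from RefSeq on another build than the table, which has no coordinates.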

Additional observations from a re-analysis of the deposited data

Results flagged for a closer look

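Fxyd6 in NP-like cells was 52.7 RPM in preparation 4, far from the other 4 preparations, whose highest value was 9.79 RPM. It was the only one of 16 combinations of gene and class flagged for a sample far from the rest, and chance flags about 1 in 20.

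Wells labelled as holding more than 1 cell entered no comparison. Their mean reads were 4022 for Atp1b1, 31506 for Fxyd2, 1498 for Fxyd6 and 13092.5 for Fxyd7 in the 32 wells with recovered reads, against 1.58, 16.7, 0.458 and 2 in empty and medium wells. In kept single cells the means were 903, 10513, 353 and 422 reads. These means rest partly on a few high wells. Fxyd7 had a median of 5 reads and a highest value of 165806 in wells with more than 1 cell, and a median of 2 in single cells. Median RPM in wells with more than 1 cell was 150.3 for Atp1b1, 864 for Fxyd2, 4.02 for Fxyd6 and 0.965 for Fxyd7. In single cells it was 523, 6274, 2.48 and 40.5.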

How the results depend on the processing

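Of the alternatives run, 60 of 68 counts of called pump genes, 247 of 272 class differences, all but 1 of 160 class levels, 25 of 28 shares, 35 of 48 session differences and 33 of 40 sex differences kept their direction and stayed within the spread or on their side of the threshold. Some of these counts were partly fixed in advance. Leaving out preparations cannot move a class level by as much as the SD over all its preparations. A sex difference with 1 preparation left out is that of session A or of session C alone. It can be reversed but cannot pass the spread used, the SD of the session A and C values. Nothing is read from those counts. Without the replicate block, which pairs classes of the same preparation, 2 pump genes were called in NF-like cells in place of 4. In NP-like cells 1 was called with no filter on low genes and in sessions B and C only, in place of 2. In PEP-like cells 4 were called with a pseudocount of 20 RPM or clustering resolution 1, and 0 by edgeR with TMM or DESeq2 size factors, in place of 2. In TH-like cells 2 were called at resolution 1, in place of 1. Leaving out 1 preparation gave 3 to 4 calls in NF-like cells and 2, 2 and 1 in NP-like, PEP-like and TH-like cells.

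With labels from the gene's own set, then edgeR with TMM and with DESeq2 size factors, Atp1b1 differed by -0.63, -0.69 and -0.77 in NP-like cells, and by 0.094, 0.21 and 0.42 in PEP-like cells, a reversed direction. Fxyd2 in NF-like cells was 0.085 after thinning, also reversed. At resolution 1 Fxyd2 was 1.23 in NP-like and -2.15 in PEP-like cells, where its level was 1498 RPM. The edgeR values (TMM, then DESeq2 size factors) were 3.07 and 3.28 for Fxyd6 in PEP-like cells. For Fxyd7 they were 4.91 and 4.84 (NF), -5.03 and -5.12 (NP), 4.76 and 4.98 (PEP) and -4.65 and -4.70 (TH). With pseudocounts of 1 and 20 RPM Fxyd7 was -4.12 and -3.08 in NP-like and 3.72 and 2.55 in PEP-like cells. In NP-like cells it was -4.35 after thinning and -3.86 in sessions A and B only, an alternative added after seeing the data.

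The session difference of Atp1b1 was -0.13 after thinning and -0.32 to 0.43 with 1 preparation left out. That of Fxyd6 was 0.98 with labels from its own set, 0.96 after thinning and -0.33 to 1.80 with 1 preparation left out. That of Fxyd7 was -4.14 in sessions B and C only, -4.85 and -2.76 with pseudocounts of 1 and 20 RPM, and -4.28 to -3.32 with 1 preparation left out. The sex difference of Atp1b1 was 0.028 after thinning. With 1 preparation left out no residual degrees of freedom remain, and the sex differences, given with no test, were -0.75 to 0.64 for Atp1b1, -0.48 to 0.059 for Fxyd2, 0.20 to 2.13 for Fxyd6 and -0.064 to 0.96 for Fxyd7. As a mean over cells, the Fxyd2 and Fxyd7 shares in NP-like cells were 98.5% and 1.18%, and the Atp1b1 share in PEP-like cells 54.2%. The cause of these changes was not tested. edgeR was not run for sex. Depth limits low values most in session A, with medians of 15421 and 15597 reads per cell.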

Other observations

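Unnamed clusters held 84 cells outside the comparisons. In cluster 17, 12 cells with Cartpt among the leading genes, Fxyd7 was at 2018 RPM in sessions A and B and 412 RPM in session C (1 preparation each). In cluster 5, led by Igfbp5 and Col1a2, Atp1b2 was at 208.2 ± 243.6 RPM (SD, n = 3) and Atp1b1 at 43.7 ± 38.8, and Fxyd2 held 52.1% ± 24.7 of the FXYD level. In cluster 15, led by Rnf149 and S100a9, Fxyd2 was at 3210.1 ± 1129.8 RPM (n = 3). The median cell of clusters 5, 15 and 17 had 0.0952, 0.118 and 0.227 times the median reads of its own preparation. Fxyd2 was above 0 in 21 of 32 empty and medium wells, with a mean of 16.7 reads in the 24 with recovered reads. In session A the mean of 14.8 Fxyd2 reads in control wells was 18.2% of that in cells, against 0.658% in session B and 0.0757% in session C.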
